A study of Homo sapiens with 10 samples.

Results

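The cell line RPMI-8402 is an established line of human T-cell acute lymphoblastic leukaemia, and histone H3 monomethylated at lysine 4 (H3K4me1) was mapped in it by CUT&RUN. In this assay an antibody directs a nuclease to its target in permeabilised cells, and the DNA cut free is sequenced. The regions described are all those of the H3K4me1 list of set C that lie on chromosomes 1 to 22 and X, namely 39503 of the 121294 regions in the 6 lists used. A further 26 regions, all on chromosome Y, were left out. No value of the data other than position chose them.

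The labels name 10 libraries in 4 sets, A to D, all from the same line, grown in serum-containing RPMI medium with antibiotics, and they name no drug, genotype or time. H3K4me1 was profiled once, in set C, beside H3K27ac, MYC and the IgG library that the labels give as its control. H3K4me3 came from set B, MYCN from set A and another MYC library from set D, whose control field names that library itself. An IgG library belongs to each set. The line is a leukaemia grown in culture and stands for no normal T cell. With 1 library for each histone mark there is no replicate, so the values describe these lists, and differences between classes of regions carry counting intervals and no test.

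H3K4me1 is set by the MLL3 and MLL4 enzymes and is found mostly at enhancers, both poised and active. H3K4me3 marks promoters, where H3K4me1 typically forms shoulders beside the trimethylated core. H3K27ac, written by p300 and CBP, separates active enhancers from those that carry H3K4me1 alone. MYC binds DNA as a partner of MAX, mostly at open promoters and, when abundant, also at enhancers.

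Most H3K4me1 regions were narrow, and the wider ones more often carried H3K27ac and less often H3K4me3. The list had a median width of 324 bp (quartiles 223 and 493), with a narrowest region of 168 bp and a widest of 3080 bp. Regions of at most 200 bp made up 17.1% (exact 95% interval 16.7 to 17.5%), and 1461 regions, 3.70%, exceeded 1000 bp. All shares here have exact Clopper-Pearson 95% intervals, which cover counting error over listed regions only. Together the regions covered 15.9 Mb, which is 0.540% of the bases spanned by the lists. The names of the H3K4me1 and H3K27ac lists give the narrow and broad peak formats. The part of peak calling in these widths and in the flank counts was not tested.

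Width differed with position and with the other marks. Regions overlapping H3K4me3 had a median of 286 bp (quartiles 212 and 413.5, n = 2047), and those lying 0 to 2 kb outside an H3K4me3 region 292 bp (210 and 439, n = 2444). Farther than 2 kb, the 17234 regions without H3K27ac had a median of 277 bp (205 and 396). The 14222 with H3K27ac but no MYC had 381 bp (257 and 588), and the 3556 with both had 464 bp (298 and 725.5). The quartile ranges of all 5 classes overlap, so these are shifts of broad distributions. A wider region also meets another list more easily, and the part of this in the order was not tested.

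**Figure D1:**
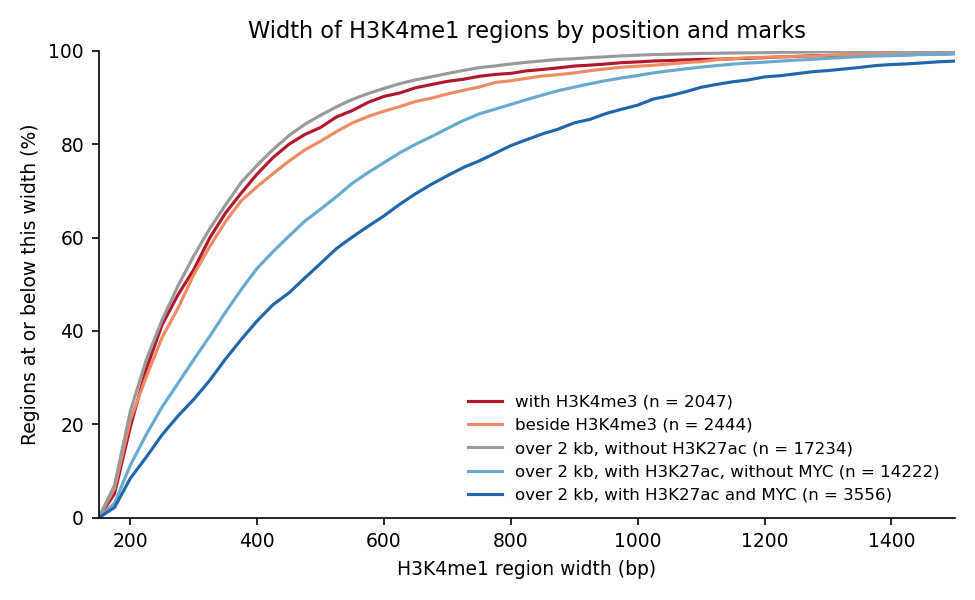
Cumulative percent of H3K4me1 regions (vertical axis) at or below a width in bp (horizontal axis, shown to 1500 bp) in 5 classes of position and marks. The curve for regions over 2 kb from H3K4me3 with H3K27ac and MYC lies lowest, with a median of 464 bp, and that of unacetylated ones highest, with 277 bp.

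The same relation appears when the list is divided into 4 width classes of about equal number. H3K27ac overlapped 34.3% of the narrowest class (168 to 223 bp; interval 33.4 to 35.3%), 42.8% and 52.5% of the 2 middle classes, and 72.0% of the widest (494 to 3080 bp; 71.1 to 72.9%). MYC of either set overlapped 11.96% of the narrowest class and 22.3% of the widest. H3K4me3 went the other way, at 6.31% of the narrowest class (5.84 to 6.80%) and 3.51% of the widest (3.15 to 3.89%). The wide H3K4me1 regions were thus those with more acetylation and less trimethylation.

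On hg19 the widest region was on chromosome 1 from 45272524 to 45275603 (3080 bp). It overlapped 1 H3K27ac region, MYC of both sets and 1 MYCN peak, and lay 3910 bp from the nearest H3K4me3. The next were on chromosome 10 from 134257860 to 134260695 (2836 bp, with MYC of both sets) and on chromosome 11 from 45179217 to 45181588 (2372 bp, without MYC). All of the 10 widest overlapped H3K27ac, none overlapped H3K4me3, and 6 overlapped MYC in either set. The others were between 2284 and 2337 bp, and the one on chromosome 17 from 18870514 to 18872834 lay 108066 bp from any H3K4me3 region. No gene annotation of this build was used here, so regions are named by position.

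H3K4me1 was mainly a distal mark in this list. Of the regions, 88.6% (88.3 to 88.9%) lay more than 2 kb from any H3K4me3 region, and 46.1% (45.6 to 46.6%) more than 50 kb away. Within 2 kb lay 11.4% (11.1 to 11.7%, 4491 regions), while windows of that reach covered 2.27% of the spanned bases. H3K27ac regions were within 2 kb of H3K4me3 in 25.1% of cases and MYC sites in 55.1%. Those lists differ in width, their callers are known only in part, and the differences between them were not tested.

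By chromosome the H3K4me1 density ran from 3.86 regions per Mb on chromosome 13 to 34.4 on chromosome 17, with a median of 14.5 over the 23 chromosomes. Chromosomes 22 and 20 followed chromosome 17, with 30.6 and 27.6. The share within 2 kb of H3K4me3 was highest on chromosome 19, at 35.5%, where H3K4me3 regions are also densest (17.5 per Mb). It was lowest on chromosome 18, at 4.09%. The share with H3K27ac varied much less, between 42.7% on chromosome 13 and 56.2% on chromosome 21.

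H3K4me1 coverage around acetylated H3K4me3 regions was highest close to their boundary. H3K4me1 covered 5.39% of the 17952 edges with a position 100 bp inside the boundary, its highest point. Going outward it covered 5.11% at the boundary itself, 2.60% at 0.5 kb, 2.07% at 1 kb and 1.32% at 2 kb. For narrow H3K4me3 regions a position 100 bp inside can be near the middle, and positions farther inside exist only in wider regions. Over the 2980 acetylated H3K4me3 regions of at least 2 kb, which give the same 5960 edges at every distance, H3K4me1 covered 0.503% at 1 kb inside, 0.721% at 500 bp inside, 2.01% at 100 bp inside, 1.81% at the boundary and 1.53% at 1 kb outside. This set was added after the values were seen, and in it the positions 500 bp and 1 kb inside had less H3K4me1 than the boundary. The 415 unacetylated H3K4me3 regions of at least 2 kb (830 edges), also added then, were alike inside and went otherwise outside. There H3K4me1 covered 0.361% (3 edges) at 1 kb inside, 0.482% (4 edges) at 500 bp inside and 1.69% at 100 bp inside. It covered 1.57% (13 edges) at the boundary, 2.53% (21 edges) at 500 bp outside and 3.61% (30 edges) at 1 kb outside. Of the 2047 overlapping H3K4me1 regions, 74.5% (72.6 to 76.4%) had their centre inside the H3K4me3 region, 44.7% (42.6 to 46.9%) lay wholly inside it and 6.30% (129) contained a whole one.

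Farther out the outline depended on acetylation of the H3K4me3 region. Outside acetylated ones H3K4me1 coverage had its lowest value of 0.779% at 3.3 kb and stood at 1.46% at 10 kb. Around unacetylated ones it was 2.36% at 2 kb and 1.74% at 3 kb, above the acetylated class at both distances, and 1.61% at 10 kb. H3K27ac coverage outside acetylated H3K4me3 regions was 0.692% at 3.1 kb and 2.33% at 10 kb. These H3K4me3 regions were chosen for holding H3K27ac, and both the H3K27ac and the H3K4me1 list have few gaps of 2 to 4.5 kb between neighbours anywhere (described with the spacing), whose part in these profiles was not tested. These percentages count edges with the mark at 1 base and have no replicate error.

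**Figure D2:**
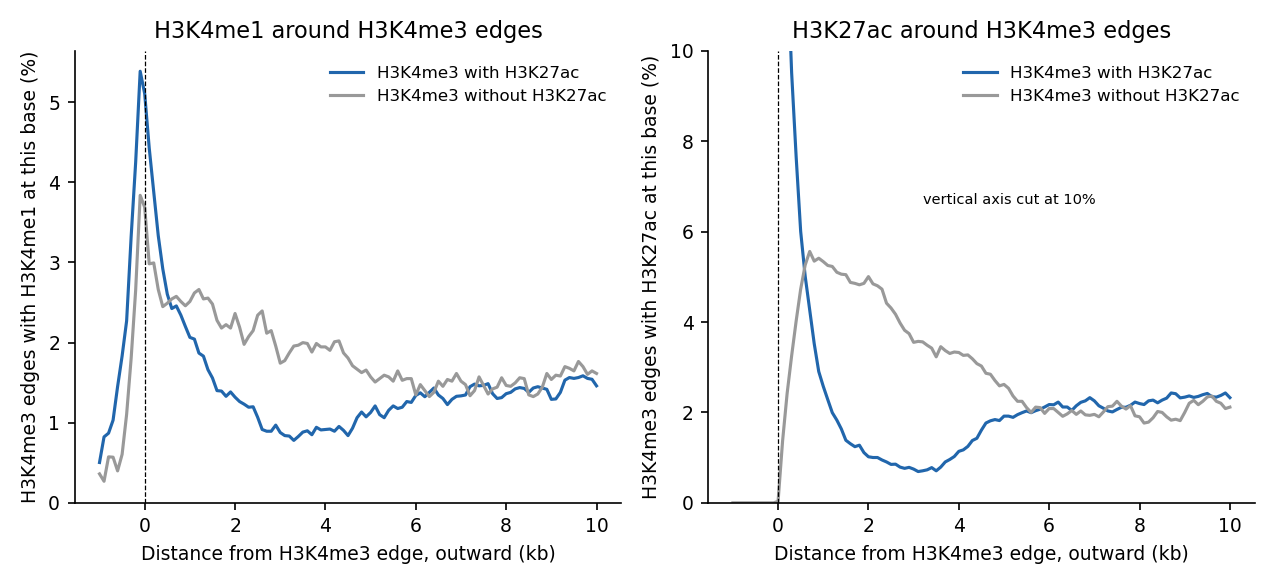
Percent of H3K4me3 region edges (vertical axis) with H3K4me1 (left) or H3K27ac (right) at a base a given distance from the edge in kb (horizontal axis; negative is inside), for H3K4me3 regions with and without H3K27ac. With regions of all widths pooled, H3K4me1 peaks just inside the edge at 5.39% and 3.84%. Outside acetylated H3K4me3 regions both marks are lowest near 3 kb. Among unacetylated H3K4me3 regions of at least 2 kb, H3K4me1 is higher at 1 kb outside (3.61%) than at 100 bp inside (1.69%). Positions inside rest on fewer, wider regions, and the right axis is cut at 10%.

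Flanks on both sides of an H3K4me3 region were rare. A region was counted on a side when its centre lay outside the H3K4me3 region and its near edge within 2 kb of it. Of 13852 H3K4me3 regions, 215 (1.55%, 1.35 to 1.77%) had H3K4me1 on both sides, 2886 (20.8%, 20.2 to 21.5%) on 1 side, and 1192 (8.61%) had it with the centre inside and on neither side. The remaining 9559 (69.0%, 68.2 to 69.8%) had none. The left and right sides of the genome's numbering were alike, with 12.03% and 11.9%, and the product of these shares is 1.43%. The both-sided share moved by over 1.5 times with the reach of the window, being 0.938% at 1 kb and 4.71% at 5 kb, and it was 0.476% when only H3K4me1 regions of at least median width were kept.

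Flanks on at least 1 side were most frequent at narrow H3K4me3 regions with acetylation. In the narrowest of 4 width classes of H3K4me3 regions (180 to 607 bp), 42.8% of those with H3K27ac (40.1 to 45.5%, n = 1309) had H3K4me1 on at least 1 side, against 24.8% of those without (22.99 to 26.7%, n = 2157). In the widest class the order was turned, with 15.9% of acetylated regions (14.6 to 17.2%, n = 3039) and 25.6% of unacetylated ones (21.5 to 30.0%, n = 422). The unacetylated regions thus kept nearly one level over the width classes, between 23.1% and 26.3%, while the acetylated ones ranged from 42.8% to 14.998%. Over all widths the shares were 24.6% without and 21.3% with H3K27ac, a difference of 3.33 points (95% Newcombe interval 1.85 to 4.83) that hides this crossing.

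The share of H3K4me3 regions without H3K4me1 differed with MYC in opposite directions by acetylation. Among acetylated H3K4me3 regions, no H3K4me1 within 2 kb was found at 69.2% of those with MYC (68.2 to 70.2%, n = 8120) and 59.9% of those without (56.9 to 62.9%, n = 1056). Among unacetylated ones it was 68.1% with MYC (66.3 to 69.96%, n = 2511) and 73.7% without (71.8 to 75.5%, n = 2165). Pooled over acetylation this crossing does not show, since H3K4me1 was lacking at 69.0% of H3K4me3 regions with MYC (68.1 to 69.8%) and 69.2% of those without (67.5 to 70.8%). With MYCN the share was 69.2% (65.6 to 72.6%, n = 707), and the difference from those without MYCN was 0.166 points (95% Newcombe interval -3.42 to 3.55). The interval leaves room for differences of a few points either way. H3K4me3 regions with MYC were wider than those without, with medians of 1682.5 and 903 bp if acetylated and 1073 and 380 bp if not. The share without H3K4me1 rose with H3K4me3 width among acetylated regions, from 45.7% in the narrowest class to 77.5% in the widest. Among unacetylated ones it was 71.4% and 71.1% in these classes. The part of width in the MYC shares was not tested.

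The most flanks at an H3K4me3 region were 5, a number that 3 regions shared. The widest of these was on chromosome 8 from 103819152 to 103819786 (635 bp), with 3 H3K4me1 regions on the left and 2 on the right. The others were on chromosome 1 from 9689544 to 9689943, with 4 and 1, and on chromosome 3 from 49843684 to 49843973, with 3 and 2. These are narrow H3K4me3 regions, and the remaining 2 of the first 5 were 298 and 196 bp wide. At the other end stood wide H3K4me3 regions with no H3K4me1 within 2 kb. The widest were on chromosome 7 from 92459776 to 92468940 (9165 bp), on chromosome 12 from 46118680 to 46126424 (7745 bp) and on chromosome 21 from 36255344 to 36262987 (7644 bp). These 3 overlapped H3K27ac and MYC of both sets. The next 2, both on chromosome 7, overlapped no H3K27ac. The one from 23507853 to 23515427 (7575 bp) held MYC of both sets, and the one from 37386060 to 37393629 (7570 bp) MYC of set C only.

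Seen from the H3K4me1 side, few regions lay between neighbouring H3K4me3 regions. Of the 2444 regions 0 to 2 kb outside H3K4me3, 93 (3.81%, 3.08 to 4.64%) had an H3K4me3 region within 2 kb on each side. H3K27ac overlapped 29.0% of these 93 (20.1 to 39.4%) and 32.3% of the other 2351 (30.4 to 34.2%). The intervals overlap.

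Overlap of H3K4me1 regions with H3K27ac was lowest beside H3K4me3, not far from it. H3K27ac overlapped 65.0% of the H3K4me1 regions that overlapped H3K4me3 (62.9 to 67.1%). The share was 34.8% at 0 to 0.5 kb (31.8 to 37.9%, n = 948), 31.3% at 0.5 to 1 kb (27.8 to 35.1%, n = 651) and 29.8% at 1 to 2 kb (26.8 to 33.0%, n = 845). It was 40.3% at 2 to 5 kb (37.9 to 42.7%, n = 1669) and 51.7% at 5 to 10 kb. Beyond that it stayed between 50.7% and 51.8% in every class, up to the 1217 regions over 500 kb away (51.3%, 48.4 to 54.1%). About the same share of distal H3K4me1 regions was therefore acetylated at any distance past 5 kb. Neighbouring H3K27ac regions in the list had at least 622 bp between them. This limits a further H3K27ac region close beside an acetylated H3K4me3 region, and its part in the low shares was not tested.

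As a group, 32.2% of the 2444 regions 0 to 2 kb outside H3K4me3 had H3K27ac, against 51.0% of the 18214 over 50 kb away. The difference was -18.8 points (95% Newcombe interval -20.8 to -16.8). It was negative on 22 of the 23 chromosomes, with a median of -18.1 points. The exception was chromosome 18, with 58.8% of only 17 flanks against 44.4% of 390 far regions. Flanks were narrower than far regions, with medians of 292 and 325 bp. Within width classes the H3K27ac difference was negative in each, from -13.4 points in the narrowest to -19.7 in the widest. The part of width was not tested.

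**Figure D3:**
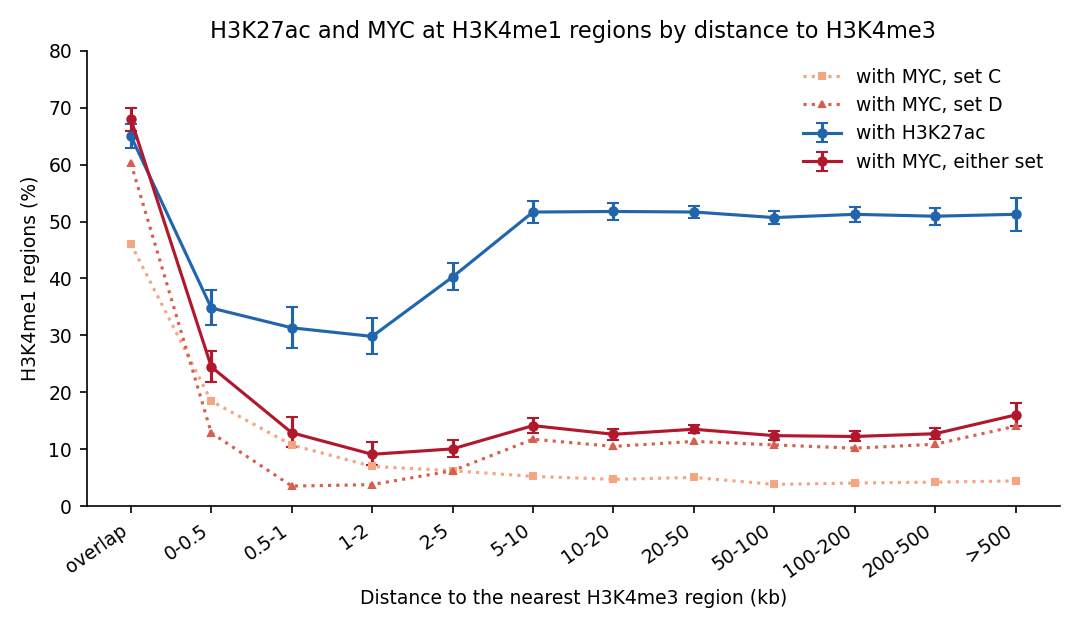
Percent of H3K4me1 regions (vertical axis) with H3K27ac or MYC in classes of distance to the nearest H3K4me3 region in kb (horizontal axis); bars are exact 95% binomial intervals, and dotted lines give each MYC set alone. H3K27ac is lowest at 1 to 2 kb, at 29.8%, and near 51% in every class past 5 kb.

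The shares are also given by whether the nearest H3K4me3 region overlapped H3K27ac, a split added after the values were seen. It uses the mark that is measured. An unacetylated H3K4me3 region touches no H3K27ac by definition, while an H3K27ac region on an acetylated one can run onto the flank, so the values nearest the edge are partly set by the split and are a description only. Next to acetylated H3K4me3 regions, H3K4me1 regions had H3K27ac in 43.8% of cases at 0 to 0.5 kb (40.0 to 47.7%), 31.6% at 0.5 to 1 kb and 25.5% at 1 to 2 kb (21.8 to 29.5%). Next to unacetylated ones the shares were 15.3% (11.4 to 19.9%), 30.8% and 36.3% (31.2 to 41.7%). At 2 to 5 kb they were 34.4% (31.4 to 37.5%) and 47.9% (44.2 to 51.6%), and from 5 kb outward the classes stood within 3 points of each other.

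The direction depended on whether overlap or closeness was counted. When an H3K27ac region within 2 kb also counted, 73.9% of flanks (72.1 to 75.7%) had one, against 64.8% of far regions (64.1 to 65.5%), and the difference turned to 9.15 points (95% Newcombe interval 7.24 to 10.98). Many flanks thus had H3K27ac nearby without sharing a base with it.

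Seen from H3K27ac, the regions on H3K4me3 were those with least H3K4me1. Only 17.1% of the 9156 H3K27ac regions overlapping H3K4me3 also overlapped H3K4me1 (16.3 to 17.9%). The share was 39.1% at 0 to 0.5 kb (32.8 to 45.6%, n = 233), 49.7% at 0.5 to 1 kb (42.0 to 57.4%, n = 173), 59.0% at 1 to 2 kb (53.7 to 64.2%, n = 354), between 50.5% and 56.9% in the classes from 2 to 500 kb, and 35.5% in the 1601 H3K27ac regions over 500 kb from H3K4me3 (33.1 to 37.9%). H3K27ac on H3K4me3 was thus mostly without H3K4me1, and H3K27ac between 1 and 500 kb mostly with it.

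MYC was found at 15.9% of H3K4me1 regions (15.5 to 16.3%), and at 4.40% in both sets. MYC went with H3K4me3 and with acetylation. It overlapped 68.0% of H3K4me1 regions that overlapped H3K4me3 (65.9 to 70.0%), 24.5% at 0 to 0.5 kb, 9.11% at 1 to 2 kb (7.26 to 11.3%) and between 12.2% and 16.0% in all classes past 5 kb. Among regions over 50 kb away, 19.9% of those with H3K27ac held MYC (19.1 to 20.7%) and 5.14% of those without (4.69 to 5.62%). MYCN was rare, at 150 H3K4me1 regions (0.380%), of which 76 overlapped H3K4me3.

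The MYC sets differed beside H3K4me3 regions. In set C, 12.4% of flanks and 4.04% of regions over 50 kb away held MYC, a difference of 8.40 points (95% Newcombe interval 7.11 to 9.79). In set D the shares were 7.24% and 10.8%, a difference of -3.59 points (-4.66 to -2.41). The direction of the MYC difference between flanks and far regions therefore rested on the list used. The lists come from different callers, SEACR for set C and MACS2 for set D, and set and caller cannot be told apart. Both list headers link 1 shared track, so a region found in both sets is not independent evidence of MYC there.

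Around distal MYC sites with H3K27ac, H3K4me1 was common, mostly centred on the site or on 1 side. Overlapping MYC peaks of both sets were joined to 19390 sites, of which 8704 lay more than 2 kb from H3K4me3. Of the 5720 distal sites with H3K27ac, 400 (6.99%, 6.35 to 7.68%) had H3K4me1 on both sides, 2277 (39.8%, 38.5 to 41.1%) on 1 side and 1601 (28.0%) only with the centre inside. Of the 2984 without H3K27ac, the shares were 2.11% (1.63 to 2.69%), 22.9% and 16.2%. No H3K4me1 lay within 2 kb of 25.2% of the distal sites with H3K27ac and 58.9% of those without (57.1 to 60.7%). At least 1 side was marked in 46.8% and 24.97%, a difference of 21.8 points (95% Newcombe interval 19.8 to 23.8). The median width of these sites was 449 bp with H3K27ac and 329.5 bp without, and the part of width was not tested.

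No dip in coverage by called H3K4me1 regions was visible over the centre of distal MYC sites. The shortest gap between such regions was 169 bp, and centres are midpoints of joined MYC peaks. A narrower dip could therefore not show, and its absence cannot be read from these values. With H3K27ac, H3K4me1 covered 40.9% of the centres, 32.5% of positions 200 bp away, 16.5% at 500 bp and 6.81% at 1 kb. Without H3K27ac the coverage was 20.5%, 13.3%, 4.88% and 2.43% at the same distances. MYC sites in H3K4me3 had 6.40% at the centre and 1.77% at 1 kb. Coverage by called regions was thus highest at the MYC centre in all 3 classes, and it differed between the classes.

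MYC sites overlapping H3K4me3 were flanked on both sides in 88 of 10387 cases (0.847%, 0.680 to 1.04%) and on 1 side in 17.2%. Over all MYC sites 2.89% were flanked on both sides, and 1.91% for set C alone against 3.57% for set D alone. The distal sites with most flanks were on chromosome 1 from 234858847 to 234860929 (2083 bp, 2 H3K4me1 regions on each side, 109876 bp from H3K4me3) and on chromosome 3 from 46542041 to 46543758 (3 and 1). Another, on chromosome 17 from 76661589 to 76662799, had 1 and 3. All 3 were present in both MYC sets and overlapped H3K27ac.

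**Figure D4:**
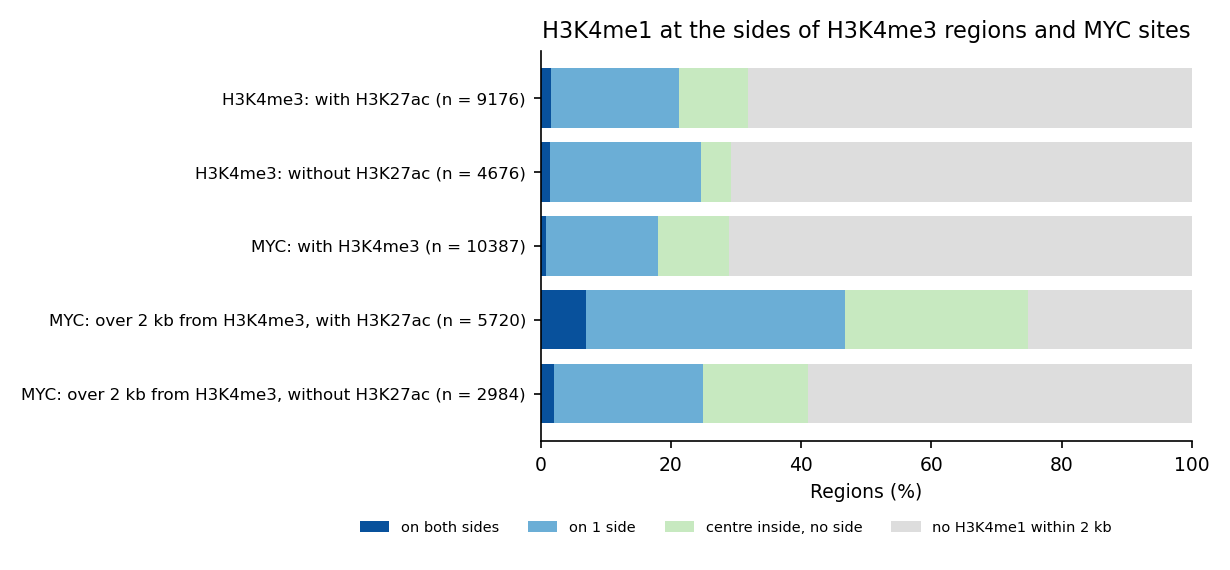
Percent of H3K4me3 regions and MYC sites (horizontal axis) with H3K4me1 on both sides, on 1 side, with its centre inside only, or absent within 2 kb; each bar is 1 class with its number of regions. Distal MYC sites with H3K27ac have H3K4me1 most often, with 25.2% lacking it, against 68.1% of acetylated H3K4me3 regions.

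H3K4me1 regions were spaced in close groups and at wider intervals, with few gaps between. Of 39480 gaps between neighbours on a chromosome, 14.3% were at most 1000 bp and the median was 15049 bp. The shortest was 169 bp, 1 bp more than the narrowest region. From 2000 to 4500 bp there were 1757 gaps and from 4500 to 7000 bp 3278, a ratio of 0.536. The same step stood in the H3K27ac list (ratio 0.487) and in MYC of set D (0.470), but not in H3K4me3 (1.29) or in MYC of set C (1.56). The low range lies at distances the flank, distance, profile and cluster values use, and its part in them was not tested.

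**Figure D5:**
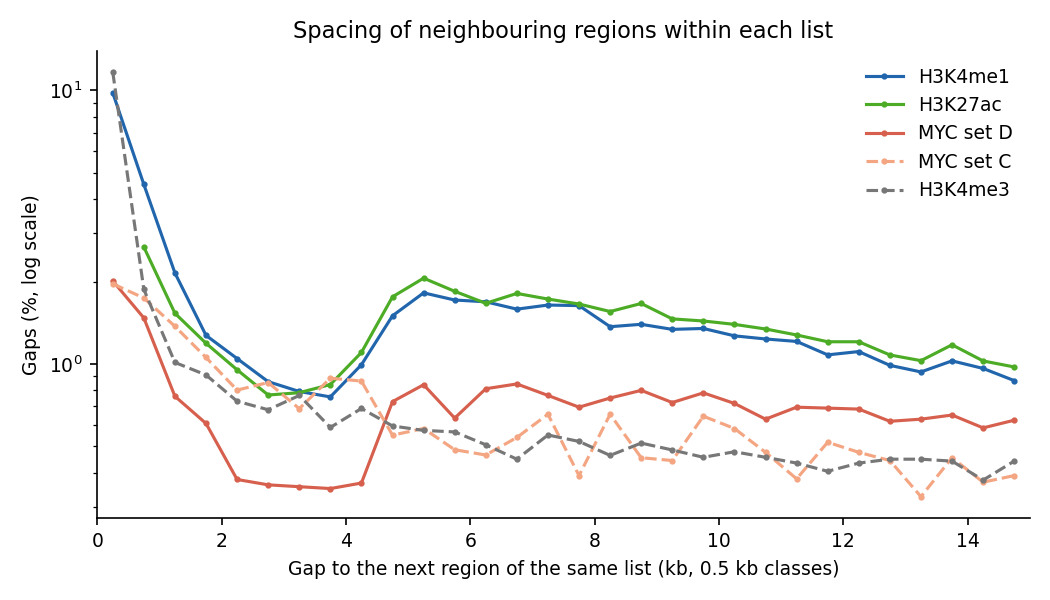
Percent of gaps between neighbouring regions of a list (vertical axis, log scale) by gap length in kb (horizontal axis, classes of 0.5 kb). H3K4me1, H3K27ac and MYC of set D are low between 2 and 4.5 kb and step up after it, with ratios of 0.536, 0.487 and 0.470, while H3K4me3 and MYC of set C do not.

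Close neighbours shared acetylation more often than distant ones. Among pairs more than 2 kb from H3K4me3 and at most 250 bp apart, both members had H3K27ac in 45.4% (42.9 to 48.0%, n = 1490), and 51.7% of the bases between them were acetylated. The share with both acetylated was 40.1% at 250 to 500 bp, 31.0% at 500 to 1000 bp and 20.9% at 1000 to 2000 bp (18.6 to 23.4%, n = 1142). Past 2000 bp it lay between 22.2% and 27.8%. A single H3K27ac region can span a close pair, and how much this adds was not tested. MYC lay in 13.1% of the shortest gaps (11.4 to 14.9%) and in 19.5% of those of 500 to 1000 bp (17.6 to 21.6%), which are longer. Per kb of gap the order was turned, with 0.631 and 0.276 gaps holding MYC.

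Joined across gaps of up to 12500 bp, the regions formed 21685 clusters, of which 13336 were single regions. Clusters of 5 or more numbered 1189 and held 8454 regions (21.4%, 21.0 to 21.8%). This share depended strongly on the joining distance, at 1.76% for 5 kb and 46.4% for 25 kb. The share of regions with H3K27ac was higher in larger clusters, from 47.4% of single regions (46.6 to 48.3%) through 52.9% in clusters of 5 to 9 and 54.3% in those of 10 to 19 (52.1 to 56.4%). In the 8 clusters of 20 or more it was 66.3% of 208 regions (59.5 to 72.7%). Median region width went the same way, from 312 bp to 424 bp, and its part in the order was not tested.

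Of the 1189 clusters of 5 or more, 753 held no H3K4me3 region, 248 no MYC, 57 held MYCN and only 6 had no H3K27ac at all. The longest was on chromosome 17 from 75319701 to 75471764 (152064 bp), with 39 H3K4me1 regions, 20 of them acetylated, and 10 MYC peaks of set D. Next were chromosome 20 from 61300701 to 61438361 (137661 bp, 32 regions, 24 acetylated) and chromosome 2 from 25388877 to 25518406 (129530 bp, 23 regions, 16 acetylated). The fourth was on chromosome 16 from 85383850 to 85508092 (28 regions, 20 acetylated, 4 H3K4me3 regions), and the fifth on chromosome 2 from 43332875 to 43456388 (23 regions, 17 acetylated). The 10 longest held 232 H3K4me1 regions, 151 with H3K27ac, and every one of the 10 held MYC of both sets, while 1 held MYCN. A longer cluster meets another list more easily, and the part of this in these counts was not tested.

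Among the 10 longest, 2 had no H3K4me3 region inside. They were on chromosome 7 from 2051356 to 2156984 (17 regions, 11 acetylated), 114394 bp from the nearest H3K4me3, and on chromosome 3 from 127431827 to 127532293 (21 regions, 15 acetylated). Clusters with no H3K27ac were much shorter. The longest of them were on chromosome 3 from 50216888 to 50243058 (26171 bp, 4 regions), on chromosome 10 from 30662572 to 30688105 (25534 bp, 4 regions) and on chromosome 4 from 83631477 to 83655482 (24006 bp, 3 regions). None of these 3 held H3K4me3, MYC or MYCN. Short clusters with few regions meet other lists less easily, and the part of this was not tested.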

How the data were processed

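The authors deposited peak lists that give start and end positions (unit: other, in bp) and neither scores nor reads. The depth behind each region is therefore unknown. The submitters' processing notes name the build hg19. The H3K4me1 and H3K27ac lists have no header, and their names give the narrow and broad peak formats. The same notes name MACS2 and SEACR. H3K4me3 and MYC of set D came from MACS2 and MYC of set C from SEACR, per the file headers, and MYCN from the cutruntools pipeline, likewise. Both MYC headers point to 1 signal track, so these sets may not be independent. Whether IgG entered the H3K4me1 calling is not given in the sources used here, and IgG signal was not analysed here.

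Regions overlapped when they shared at least 1 bp, and distances were counted between nearest edges. The shares have exact 95% Clopper-Pearson intervals and the differences Newcombe intervals, over regions that are not replicates. Named regions were the 10 widest H3K4me1 regions, the 10 longest clusters, the 5 longest without H3K27ac, the 5 H3K4me3 regions and 5 MYC sites with most flanks, and the 5 widest H3K4me3 regions without H3K4me1. The text prints part of them. Gene names, gene lists and sequence were not used, as no hg19 annotation or genome was used here. The members and classes were chosen with earlier results of these data known. The code was tested on simulated flanks, and its 10 counts of overlap and nearness equalled those of bedtools 2.31.1. Counting and plots used scipy 1.17.1, matplotlib 3.10.9 and numpy 2.4.6 under Python 3.11.15.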

Additional observations from a re-analysis of the deposited data

How the results depend on the processing

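Of 26 alternatives, 7 kept the value within its counting interval, 18 moved it and 1 turned its sign. Within 2 kb of H3K4me3 lay 11.4% of H3K4me1 regions, 9.23% within 1 kb, 15.6% within 5 kb, and 9.43% for regions of at least median width. Both-sided flanks of H3K4me3 were 0.938% at 1 kb, 4.71% at 5 kb and 0.476% with the wider regions. Both-sided flanks of MYC sites were 2.06% at 1 kb, 6.30% at 5 kb, 1.91% for set C, 3.57% for set D and 5.32% for sites over 2 kb from H3K4me3. The H3K27ac difference between flanks and far regions, -18.8 points, was -14.5 with H3K27ac within 500 bp counted, 9.15 with 2 kb counted, -16.3 beside acetylated and -23.5 beside unacetylated H3K4me3, a split by the measured mark itself and so no support for the difference; these 4 settings were added after the values were seen. Leaving out each chromosome gave -19.3 to -18.1 points. The share in clusters was 1.76% at 5 kb, 46.4% at 25 kb and 9.16% with the wider regions, which are fewer by construction. The median width was 353 bp with regions joined within 500 bp. Wider windows and joins take in more regions by construction, and for the other shifts the cause was not tested. No paired analysis was possible because each histone mark has 1 library and no test was made. With positions only, no limit from depth can be given.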

Other observations

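H3K27ac regions over 500 kb from H3K4me3 stood apart from other distal H3K27ac regions in their H3K4me1, with 35.5% overlapping it against 50.5% at 200 to 500 kb, whereas the H3K4me1 regions in the same remote class had H3K27ac as often as elsewhere (51.3%). There were 1601 H3K27ac and 1217 H3K4me1 regions in that class, and the reason was not tested. The H3K4me1 regions there were narrow, with a median of 288 bp. Of the acetylated ones 25.2% held MYC of either set (21.8 to 28.8%), compared with 20.2% at 200 to 500 kb (18.6 to 21.9%). These intervals overlap. Over all H3K4me1 regions of the 2 classes, MYC of set C was at 4.44% and 4.23%, and MYC of set D at 14.1% and 10.9%.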
